A study of Mus musculus with 8 samples.

Results

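Distal CLOCK peaks without BMAL1 or PDX1 are the peaks of the CLOCK list that share no base with any peak of the BMAL1 or PDX1 list and whose centre lies more than 1 kb from either end of every protein-coding gene in the RefSeq annotation of mm10 (GRCm38.p6). There were 554 such peaks among 1378 CLOCK peaks (40.2%), and they are called distal CLOCK-only peaks here. They were chosen on peak calls, so the lack of BMAL1 and PDX1 and the distance from gene ends are the rule itself and no result. ChIP-seq was made in Beta-TC6 cells, a mouse insulinoma line derived from beta cells that express a viral oncogene under the insulin promoter. The labels name no treatment or genetic change, and the cells were harvested at confluence and fixed with DSG and formaldehyde. There was 1 library for each of the 6 targets, namely the factors CLOCK, BMAL1 and PDX1 and the chromatin marks H3K27ac, H3K4me2 and H2A.Z, and 2 input libraries, with no replicate, and the labels give no time of day.

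CLOCK is a basic helix-loop-helix protein of the circadian clock. It pairs with BMAL1, and the pair binds E-boxes, of which CACGTG is the canonical form, and activates Per, Cry and other genes whose products then repress it. PDX1 is a homeodomain factor that keeps beta cells mature and occupies many of their enhancers. H3K27ac marks active enhancers and promoters, H3K4me2 marks both active and poised ones, and the histone variant H2A.Z sits beside many starts and enhancers.

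The cell type and the word distal were checked against the lists. Of 8 beta-cell marker genes, 8 had H3K27ac and 8 had H3K4me2 at a gene end, against 0 of 6 acinar and duct markers and 0 of 5 blood and endothelial markers for both marks. Of 6 markers of other islet cells, 1 had H3K27ac and 3 had H3K4me2. Distal holds only for the ends of whole genes. The rule did not use starts inside genes or of non-coding genes. Of the 545 distal CLOCK-only peaks on chromosomes with start data, 61 (11.2%) had their centre within 1 kb of an annotated RefSeq start. Over all CLOCK peaks, gene-end peaks included, it was 447 of 1341 (33.3%). Of the 554 peaks, 315 (56.9%, Wilson 95% interval 52.7 to 60.9) had their centre inside a protein-coding gene. This was near the share over all CLOCK peaks, 753 of 1378 (54.6%). Intervals of shares cover counting error only.

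Sequence could be read only for the 31 of the 554 peaks that overlap a RefSeq start window. Such a window runs from 250 bases before to 50 after an annotated start. These 31 peaks lie at annotated starts, and the sequence of the other distal CLOCK-only peaks was not read. The shared stretch was 12 to 205 bases long (median 155), and 9 peaks lay wholly inside a window. The stretches below were picked to show the highest-scoring peaks on a start, the peaks with 3 E-boxes, shorter stretches with 1 E-box, and a core clock output gene without one. Each is the RefSeq sequence (GRCm38.p6) shared by peak and window, 5′ to 3′ on the strand of the gene, and capitals mark CACGTG or its 1-base variant CACGTT on either strand, so that AACGTG in capitals is CACGTT on the other strand.
Ankrd12, chr17:66077006-66077210, minus strand: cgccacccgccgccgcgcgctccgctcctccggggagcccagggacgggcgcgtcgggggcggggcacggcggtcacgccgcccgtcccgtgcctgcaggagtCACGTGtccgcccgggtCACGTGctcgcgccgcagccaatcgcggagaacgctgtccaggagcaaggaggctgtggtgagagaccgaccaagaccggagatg
Per1, chr11:69098707-69098911, plus strand: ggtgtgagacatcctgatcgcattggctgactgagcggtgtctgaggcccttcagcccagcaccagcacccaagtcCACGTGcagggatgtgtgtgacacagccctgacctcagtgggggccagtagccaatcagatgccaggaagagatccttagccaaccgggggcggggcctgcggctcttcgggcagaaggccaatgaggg
Osbpl2, chr2:180119141-180119345, plus strand: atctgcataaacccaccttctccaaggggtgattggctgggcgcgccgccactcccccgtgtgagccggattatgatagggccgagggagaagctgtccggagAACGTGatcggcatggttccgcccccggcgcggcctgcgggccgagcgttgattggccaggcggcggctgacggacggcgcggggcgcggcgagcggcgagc
Nudt9, chr5:104046614-104046719, plus strand: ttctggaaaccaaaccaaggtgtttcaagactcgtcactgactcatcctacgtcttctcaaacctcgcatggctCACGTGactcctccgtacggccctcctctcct
Tor1aip2, chr1:156040835-156040910, plus strand: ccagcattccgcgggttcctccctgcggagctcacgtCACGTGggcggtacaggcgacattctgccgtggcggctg
Rragb, chrX:153139809-153140007, plus strand: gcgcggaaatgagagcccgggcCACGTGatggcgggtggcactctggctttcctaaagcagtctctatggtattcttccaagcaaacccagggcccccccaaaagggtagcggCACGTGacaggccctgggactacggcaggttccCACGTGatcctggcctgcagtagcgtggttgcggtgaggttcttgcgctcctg
Gtf2ird2, chr5:134183799-134184003, plus strand: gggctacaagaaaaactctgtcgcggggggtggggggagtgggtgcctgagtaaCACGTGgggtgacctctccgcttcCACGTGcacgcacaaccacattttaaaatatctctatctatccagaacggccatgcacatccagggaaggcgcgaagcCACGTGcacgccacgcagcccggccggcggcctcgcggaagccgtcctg
Usp2, chr9:44084722-44084926, plus strand: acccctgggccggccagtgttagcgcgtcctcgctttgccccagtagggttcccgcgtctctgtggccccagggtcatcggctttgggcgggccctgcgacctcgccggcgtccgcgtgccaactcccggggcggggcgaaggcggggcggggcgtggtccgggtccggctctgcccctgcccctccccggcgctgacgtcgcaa

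CACGTG stood in the shared bases of 11 of the 31 peaks and CACGTT in 2. Ankrd12, which encodes an ankyrin-repeat nuclear protein, carried 2 copies of CACGTG separated by 11 bases. The Per1 stretch, at a start inside the gene of this clock repressor, carried 1 copy. Osbpl2, an oxysterol-binding lipid carrier, had the variant box and no canonical one. Nudt9, an ADP-ribose pyrophosphatase, and Tor1aip2, a torsin-interacting protein of the endoplasmic reticulum, carried 1 copy each in shared stretches of 106 and 76 bases, under peaks of score 23 and 22. Rragb, a Rag GTPase of the amino acid pathway to mTORC1, carried 3 copies with gaps of 85 and 27 bases, under a peak of score 20. Gtf2ird2, of the TFII-I family, carried 3 copies with gaps of 18 and 72 bases, under a peak of score 14. The peak at Usp2, a deubiquitinase and rhythmic gene in many tissues, held neither form in its 205 bases.

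Counted over whole start windows, CACGTG stood in 15 of the 37 windows under distal CLOCK-only peaks (40.5%). It stood in 59 of 98 windows under CLOCK peaks on BMAL1 (60.2%) and in 84 of 192 windows under gene-end CLOCK peaks without BMAL1 or PDX1 (43.8%). Of all 32851 windows 2349 held it (7.15%). Base composition differed between these sets, with a median GC content of 63.3% in windows under distal CLOCK-only peaks and 52.7% in all windows. Among the 6703 windows with 60 to 70% GC, 742 held CACGTG (11.1%). The variant CACGTT stood in 2 of the 37 windows under distal CLOCK-only peaks (5.41%). Its share was 5.25% in windows with 60 to 70% GC and 4.68% in all windows. The shorter CANNTG, which includes CACGTG, stood in 81.1%, 63.3% and 72.3% of these sets. Under CLOCK peaks on BMAL1, CACGTT stood in 14 of 98 windows (14.3%) and CANNTG in 84.7%. Under gene-end CLOCK peaks without BMAL1 or PDX1, CACGTT stood in 18 of 192 (9.38%) and CANNTG in 78.6%. TAATTA, a core of homeodomain sites, stood in 0 of the 37 windows, against 0.865% of those with 60 to 70% GC and 5.29% of all windows. Under CLOCK peaks on BMAL1 its share was 1.02% and under gene-end CLOCK peaks without BMAL1 or PDX1 0.521%. With 37 windows and shares this low, no lack is read from the 0. TGTTTAC stood in 2 of the 37 (5.41%), against 1.63% of those with 60 to 70% GC and 3.65% of all windows. TGACGTCA stood in 0 of the 37, against 3.34% and 1.79%. TGANTCA, a form of the AP-1 site, stood in 5 of the 37 (13.5%), against 3.97% of those with 60 to 70% GC and 7.81% of all windows. It stood in 3.06% of windows under CLOCK peaks on BMAL1 and 2.6% of those under gene-end CLOCK peaks without BMAL1 or PDX1. In the bases shared by peak and window, which are fewer than those of whole windows, it stood only in the Nudt9 stretch. Both strands were searched, windows of 1 gene can overlap, and these shares are descriptions with no test.

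**Figure D1:**
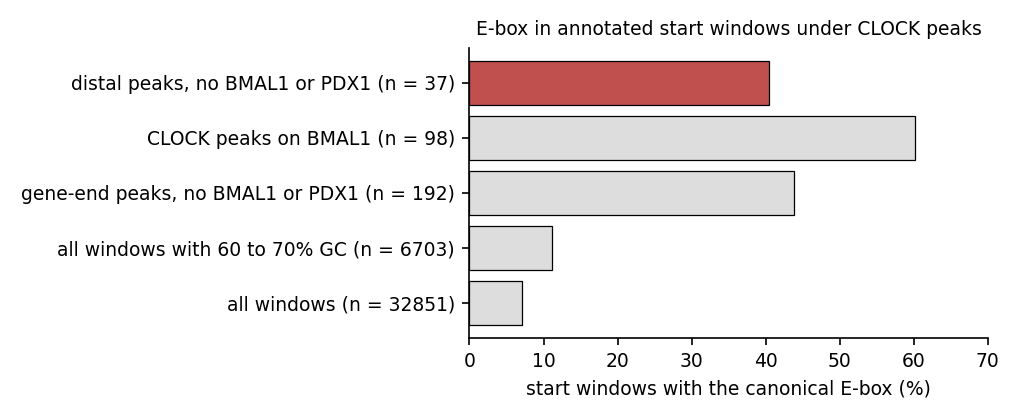
Share of annotated start windows (300 bases) that hold the canonical E-box, in percent on the horizontal axis, by the kind of CLOCK peak the window overlaps, with all windows at the bottom. Windows under distal CLOCK-only peaks stand at 40.5%, windows under CLOCK peaks on BMAL1 at 60.2% and all windows at 7.15%. Only 31 of the 554 distal CLOCK-only peaks overlap such a window.

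Most distal CLOCK-only peaks were weak. The score is the number of tags at the peak, the caller needed at least 13, and the scores of these 554 peaks ran from 13 to 68 with a median of 14. Of them 342 (61.7%) scored 13 or 14, 231 (41.7%) stood at the lowest possible score of 13, and 58 (10.5%) reached 20 or more. Over all CLOCK peaks these shares were 43.5%, 27.3% and 26.2%. The median score was 15 for the 233 distal CLOCK peaks on PDX1 without BMAL1, 25 for the 141 distal CLOCK peaks on BMAL1, and 15 for the 325 gene-end CLOCK peaks without either factor. Binding of BMAL1 or PDX1 below the limits of the caller is in neither list, so absence here means absence from the lists.

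Just inside the rule, the peak nearest to a gene end lay 1010 bp from Klf5 with a score of 13, and just outside it a peak lay 993 bp from Czib with a score of 13. The closest BMAL1 peak lay 34 bp from a distal CLOCK-only peak near Gltp with a score of 15, and the closest PDX1 peak lay 1 bp from the peak in Elmo1 with a score of 32. Just outside, the smallest overlaps were 1 bp with BMAL1 near Lrrc20, score 26, and 3 bp with PDX1 near Arl4a, score 17. Of the 554 peaks, 10 (1.81%) had a BMAL1 peak within 500 bp and 65 (11.7%) a PDX1 peak within 500 bp. The median gap was 113189 bp to BMAL1 and 12977 bp to PDX1, whose list has 34883 peaks against 4125 for BMAL1.

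The highest score, 68, belonged to chr17:66077006-66077210 at the start of Ankrd12, which is 1687 bp from the end of the neighbouring Ndufv2, a complex I subunit gene. This peak had 9 input tags, stood 7.32 times over the input, and lay in an H3K27ac interval without H3K4me2 or H2A.Z. Per1 held the next peak, chr11:69098707-69098911, with a score of 56 and 7 input tags. It stood 7.86 times over the input but only 4.54 times over the surrounding 10 kb, a BMAL1 peak lay 3633 bp away, and H3K27ac and H3K4me2 covered it. The peak in Sptbn4, a spectrin gene, scored 53 with 12 input tags, 4.26 times over the input, close to the limit of 4, and had no mark. The Osbpl2 peak scored 43, with H3K4me2 and H2A.Z but no H3K27ac.

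Further down came a peak near Jakmip1 (score 40), 479 bp from a PDX1 peak and 1966 bp from a BMAL1 peak, and one in Herpud1 (score 40), a gene of endoplasmic-reticulum-associated degradation, with both active marks. The peak in Npas3, a bHLH-PAS factor of the same family as CLOCK, scored 37 with 1 input tag and stood 33.41 times over the input, the largest ratio among the 12 peaks with scores of 30 or more. The others of these 12 lay nearest to Ppp4r2 (35), Sipa1l2 (35), Dip2b (34), Rnf19b (33) and Elmo1 (32). Of the 12, 10 (83.3%) had at least 4 input tags, and their median ratio to the input was 7.0. Among distal CLOCK peaks on BMAL1 with scores of 30 or more, 26 of 57 (45.6%) had at least 4 input tags and the median ratio was 16.95. Among gene-end CLOCK peaks without either factor at such scores it was 13 of 20 (65.0%), with a median ratio of 7.395. The part of the input signal in these top scores was not tested.

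**Figure D2:**
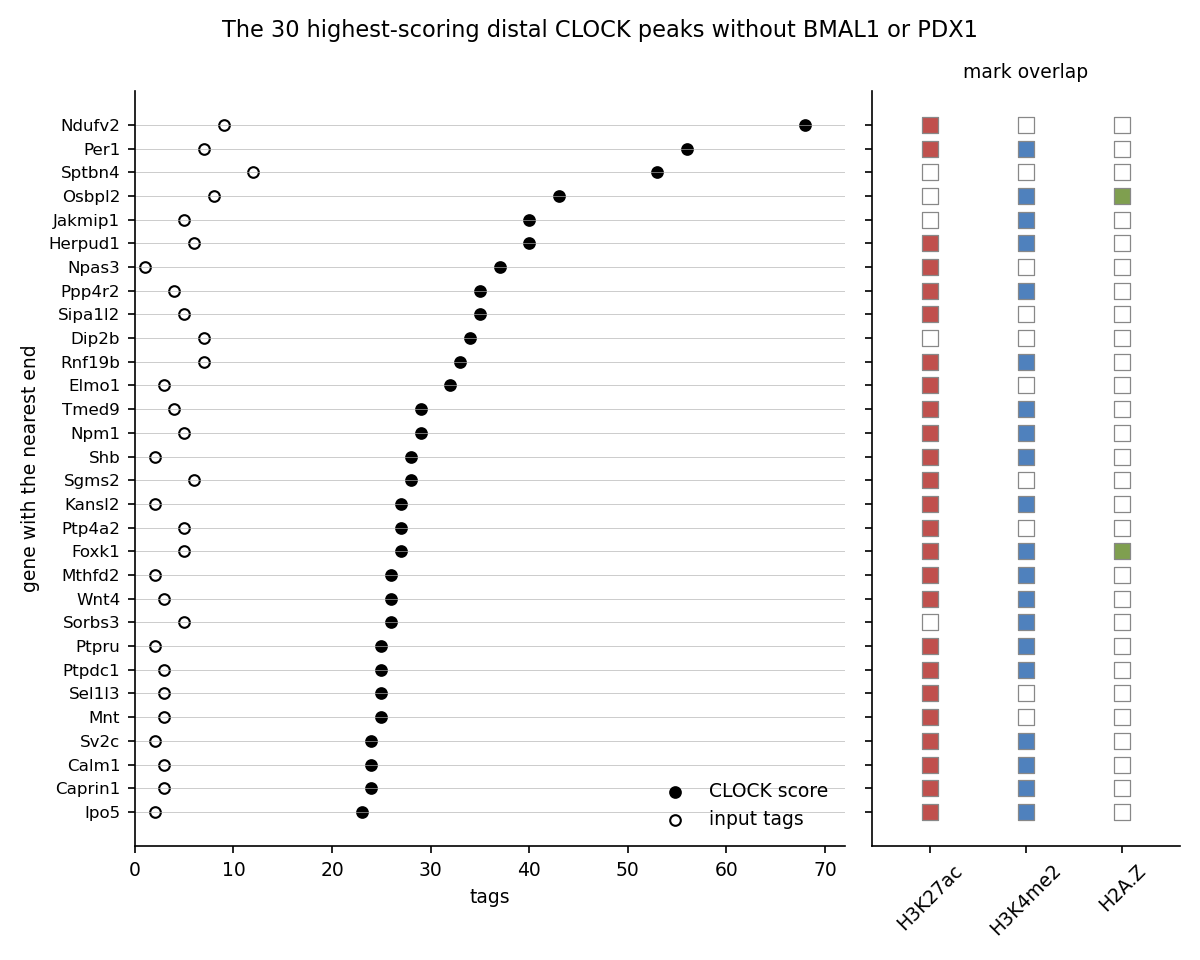
CLOCK score (filled circles) and input tags (open circles), in tags on the horizontal axis, for the 30 highest-scoring distal CLOCK-only peaks, named by the gene with the nearest end, and their overlap with each mark (filled squares). The top peak, whose nearest end is that of Ndufv2, has a score of 68 and 9 input tags, and the Sptbn4 peak has the most input tags, 12, and no mark.

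Chromatin marks were called from other libraries than the rule used. H3K27ac covered 244 of the 554 distal CLOCK-only peaks (44.0%, 40.0 to 48.2), against a background of 62.8% over all CLOCK peaks. H3K4me2 covered 212 (38.3%, 34.3 to 42.4), against 55.4% over all CLOCK peaks. H2A.Z covered 73 (13.2%, 10.6 to 16.2), against 19.4% over all CLOCK peaks. No mark covered 243 peaks (43.9%, 39.8 to 48.0), against 316 of all 1378 CLOCK peaks (22.9%). Both H3K27ac and H3K4me2 covered 157 peaks (28.3%), H3K27ac without H3K4me2 covered 87 (15.7%), and H3K4me2 without H3K27ac covered 55 (9.93%). All 3 marks met at 33 peaks (5.96%), and 12 peaks (2.17%) had H2A.Z alone.

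Against each of the 3 classes tested, the distal CLOCK-only peaks overlapped H3K27ac less often. The share was 44.0% against 75.5% of the 233 distal CLOCK peaks on PDX1 without BMAL1, an odds ratio of 0.255 (95% interval 0.181 to 0.359, adjusted exact p = 1.89e-15). It was 44.0% against 75.9% of the 141 distal CLOCK peaks on BMAL1, an odds ratio of 0.25 (0.164 to 0.381, adjusted exact p = 3.33e-11). Against 72.3% of the 325 gene-end CLOCK peaks without either factor the odds ratio was 0.301 (0.224 to 0.405, adjusted exact p = 1.89e-15). Gene ends chose that class, so the contrast also holds the mark's own position there. The 125 gene-end CLOCK peaks on BMAL1 or PDX1, of which 83.2% overlapped H3K27ac, were not tested. The tests are two-sided Fisher's exact tests over peaks of single libraries, with Benjamini-Hochberg adjustment over 18 tests, and peaks are not replicates of a condition. Peaks were also compared within CLOCK score classes of 13 or 14, 15 to 19 and 20 or more. There the difference from the BMAL1 class shrank to a Mantel-Haenszel odds ratio of 0.58 (95% interval 0.348 to 0.967) and missed the threshold of 0.05 after adjustment. The class of 20 or more held 100 of the 141 distal CLOCK peaks on BMAL1, with scores up to 294. It held 58 distal CLOCK-only peaks, with scores up to 68, so scores were not matched within it. The differences from the PDX1 class and the gene-end class held in all 13 alternatives. Their odds ratios were nearest to 1 at 0.417 with the upper 50% of the mark lists for the PDX1 class and at 0.565 with CLOCK scores of 15 or more for the gene-end class.

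H3K4me2 was also less frequent at distal CLOCK-only peaks, 38.3%, than on PDX1 without BMAL1, 56.2% (odds ratio 0.483, 0.354 to 0.658, adjusted exact p = 9.19e-06). The share on BMAL1 was 61.7% (odds ratio 0.385, 0.263 to 0.563, adjusted exact p = 1.42e-06), and that at gene ends was 73.8% (odds ratio 0.22, 0.162 to 0.297, adjusted exact p = 1.02e-23). The odds ratio against gene ends was 0.45 with CLOCK scores of 15 or more and 0.103 with a mark within 500 bp, and the call held in all 13 alternatives. This contrast also holds the mark's own position at gene ends. With only CLOCK scores of 15 or more, the H3K4me2 difference from the PDX1 class missed the threshold (52.8% against 57.9%, odds ratio 0.813, adjusted exact p = 0.553), as did that from the BMAL1 class (52.8% against 62.2%, odds ratio 0.681, adjusted exact p = 0.242). Within score classes the difference from the BMAL1 class missed it as well (odds ratio 0.778, 0.488 to 1.24).

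H2A.Z followed another order. Its share at distal CLOCK-only peaks, 13.2%, lay above that on PDX1 without BMAL1, 8.58%, but the test missed the threshold (odds ratio 1.62, 0.961 to 2.72, adjusted exact p = 0.0848), and it passed under 3 of 13 alternatives. Against the BMAL1 class the shares were 13.2% and 22.7% (odds ratio 0.517, 0.325 to 0.823, adjusted exact p = 0.012). That difference missed the threshold with CLOCK scores of 15 or more (odds ratio 0.691, adjusted exact p = 0.377), with the upper 50% of the mark lists (0.592, adjusted exact p = 0.0834) and away from annotated starts (0.53, adjusted exact p = 0.0549). Against the gene-end class they were 13.2% and 32.6% (odds ratio 0.314, 0.224 to 0.44, adjusted exact p = 3.73e-11), and the odds ratio was 0.486 with CLOCK scores of 15 or more. Here too the contrast holds the mark's own position at gene ends.

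**Figure D3:**
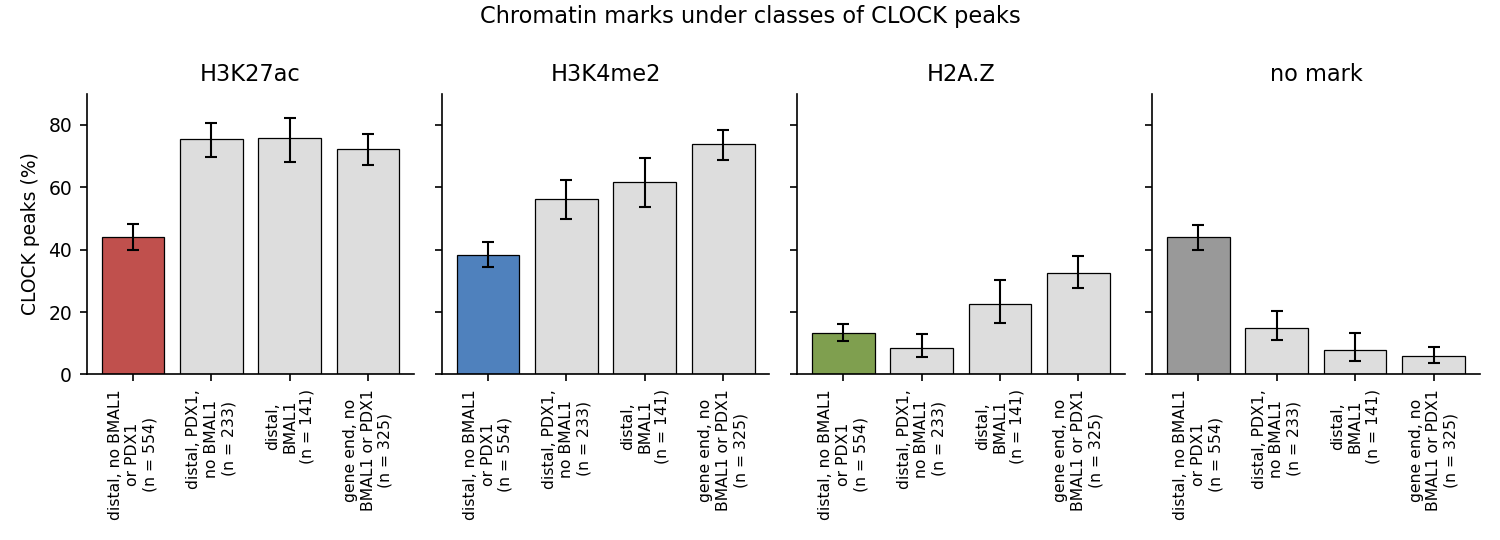
Share of CLOCK peaks (vertical axis, percent, with Wilson 95% intervals) that overlap H3K27ac, H3K4me2, H2A.Z or none of them, in distal CLOCK-only peaks (coloured, left) and in 3 other classes (grey). The coloured bars stand at 44.0%, 38.3% and 13.2% for the marks and at 43.9% for no mark, where the grey bars stand at 15.0%, 7.8% and 5.85%.

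Among the distal CLOCK-only peaks themselves, both active marks went with the CLOCK score. H3K27ac covered 63.2% of the 212 peaks with scores of 15 or more and 32.2% of the 342 with 13 or 14 (odds ratio 3.62, 2.53 to 5.19, adjusted exact p = 5.15e-12). H3K4me2 covered 52.8% and 29.2% of the same groups (odds ratio 2.71, 1.9 to 3.87, adjusted exact p = 9.31e-08), and H2A.Z covered 17.0% and 10.8% (odds ratio 1.69, 1.03 to 2.77, adjusted exact p = 0.0508). By class, H3K27ac covered 32.2% at scores of 13 to 14, 58.4% at 15 to 19, 78.3% at 20 to 29 and 66.7% of the 12 peaks at 30 or more. Peaks without any mark made up 56.7%, 26.6%, 13% and 16.7% of these 4 classes.

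The 243 unmarked peaks had a median score of 13 and a median of 1 input tag, against 15 and 2 for the 311 marked ones. Their median ratio to the input was 12.78 against 7.37, and the smallest input that enters this ratio is listed as 0.5 tags. Of the unmarked peaks 4 (1.65%) had 4 or more input tags, against 35 (11.3%) of the marked ones. The median gap from an unmarked peak to the nearest interval was 13352 bp for H3K27ac, 11969 bp for H3K4me2 and 19423 bp for H2A.Z, so most were not just beside one. Within 500 bp an H3K27ac interval lay beside 20 of them, an H3K4me2 interval beside 16 and an H2A.Z interval beside 8.

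**Figure D4:**
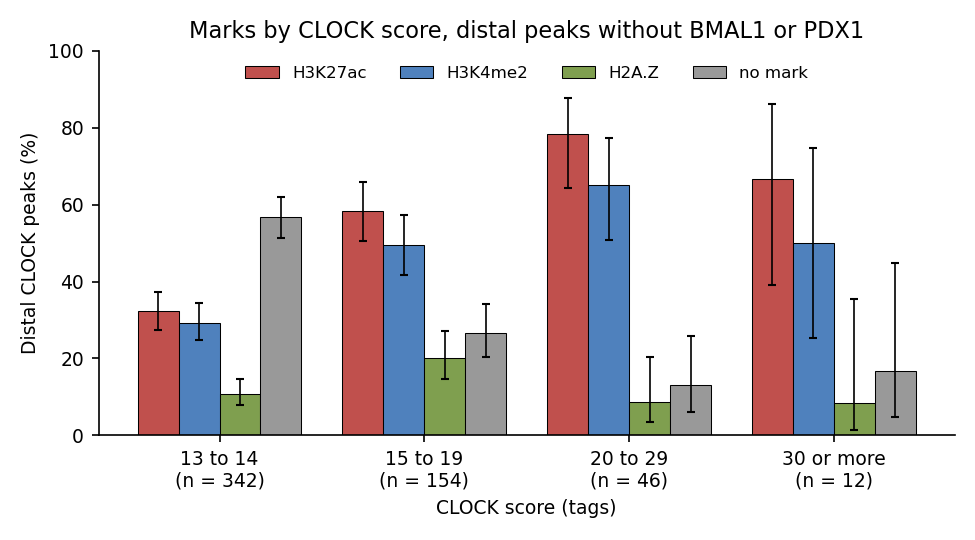
Share of distal CLOCK-only peaks (vertical axis, percent, with Wilson 95% intervals) that overlap each mark or none, by CLOCK score class in tags. H3K27ac covers 32.2% of the lowest class and 78.3% of the class of 20 to 29, and the highest class holds 12 peaks and has wide intervals.

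Position went with the marks where starts were concerned. The 61 distal CLOCK-only peaks within 1 kb of an annotated start overlapped H3K27ac in 75.4% and the 484 farther away in 39.7% (odds ratio 4.66, 2.53 to 8.59, adjusted exact p = 2.55e-07). H3K4me2 stood at 73.8% and 33.5% (odds ratio 5.59, 3.07 to 10.2, adjusted exact p = 6.57e-09), and H2A.Z at 32.8% and 10.5% (odds ratio 4.14, 2.25 to 7.61, adjusted exact p = 1.49e-05). These 3 Fisher's exact tests were added after the data were seen and adjusted over themselves. The median score was 17 for the peaks near a start, against 14 for all distal CLOCK-only peaks.

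Peaks inside and outside protein-coding genes gave no call. H3K27ac covered 44.4% of the 315 inside and 43.5% of the 239 outside (odds ratio 1.04, 0.74 to 1.46, adjusted exact p = 0.971), and the intervals for H3K4me2 (0.696 to 1.39) and H2A.Z (0.627 to 1.7) also spanned 1. Over the alternatives these 3 odds ratios fell on either side of 1, between 0.902 and 1.22 for H3K27ac, 0.809 and 1.1 for H3K4me2, and 0.631 and 1.38 for H2A.Z. The 375 peaks within 50 kb of a gene end had H3K27ac more often than the 179 farther away, 48.3% against 35.2% (odds ratio 1.72, 1.19 to 2.48, adjusted exact p = 0.00737). For H3K4me2 it was 42.9% against 28.5% (odds ratio 1.89, 1.29 to 2.77, adjusted exact p = 0.00193), and for H2A.Z 15.5% against 8.38% (odds ratio 2.0, 1.1 to 3.64, adjusted exact p = 0.0308). Away from annotated starts none of the 3 distance contrasts passed (odds ratios 1.46, 1.41 and 1.5, adjusted exact p = 0.0971, 0.149 and 0.346), and at scores of 15 or more none passed either (1.31, 1.41 and 1.16, adjusted exact p = 0.582, 0.471 and 0.948).

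The 244 acetylated peaks lay in 243 H3K27ac intervals that were wide for the list. Their median region size was 2158 bp and their median signal 193.6 tags per 10000000, against 1163 bp and 49.1 tags over all 29735 intervals. Of the 243 intervals, 126 (51.9%) were among the 5940 intervals with the most tags, and 27 (11.1%) were 5 kb or wider, against 2.41% of all. A wide interval meets a peak more easily, so these values are descriptions. Intervals under distal CLOCK peaks on PDX1 had a median of 2303 bp and 180.2 tags, and those under distal CLOCK peaks on BMAL1 2466 bp and 250.2 tags. Those under gene-end CLOCK peaks without either factor had 1951 bp and 217.4 tags. In these classes, in this order, 11.9%, 13.1% and 6.44% of intervals were 5 kb or wider. Among the 5940 intervals with the most tags were 49.4%, 57.9% and 62.7% of them, so these traits are not particular to the distal CLOCK-only peaks. A PDX1 peak elsewhere in the interval was present in 60 of the 243 (24.7%), against 23.4% of all intervals, and a BMAL1 peak in 8 (3.29%), against 2.51%. All intervals are narrower, so these shares are not like for like. A PDX1 peak was present in 33.6% of intervals under distal CLOCK peaks on BMAL1, a class not chosen for lacking PDX1. Under gene-end CLOCK peaks without either factor it was 7.73%.

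The widest interval, of 28298 bp with 4197.3 tags, held a peak of score 15 at chr15:85677916-85678120, nearest to Ppara, a nuclear receptor of fatty acid oxidation, whose end was 56892 bp away. An interval of 11929 bp with 2513.0 tags held a peak of score 18 at an annotated start inside Myt1l, a neuronal zinc-finger factor. Tle3, a Groucho corepressor, had a peak of score 13 in an interval of 10815 bp with all 3 marks, 425 bp from a PDX1 peak. A peak of score 16 in Casz1, a zinc-finger factor, lay in an interval of 10357 bp and 151 bp from a PDX1 peak. One of score 13 in Rimbp2, a scaffold of the presynaptic active zone, lay in an interval of 10297 bp. All 5 of these peaks also overlapped H3K4me2.

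By genes, 375 of the 554 peaks (67.7%) had their nearest protein-coding gene end within 50 kb, at 363 genes, which is 1.66% of the 21887 genes. Against this background, 9 of the 258 genes matched from 8 lists of clock, beta-cell and diabetes genes had such a peak. Sipa1l2, a GTPase-activating protein for Rap, had 3 peaks with scores of 35, 16 and 15, and the first 2 had H3K27ac. There were 10 genes with 2 peaks each, among them Osbpl2, Hnrnpu and Foxo6. Pairs of peaks within 10 kb of each other were few, 7 in all, and the closest pair lay 567 bp apart near Tenm3 with scores of 16 and 18.

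Of the 24 core clock genes, 2 had a distal CLOCK-only peak, Per1 and Usp2, where 17 of the 24 had a CLOCK peak of any class at that distance. The Usp2 peak, chr9:44084722-44084926, scored 16 with 2 input tags and overlapped H3K4me2 but not H3K27ac. Of the 24 beta-cell transcription factor genes and the 32 genes of glucose sensing and mitochondrial metabolism, 0 had one. The share over all protein-coding genes was 1.66%, and lists this short can hold 0 at that share. A CLOCK peak of any class was present at 1 of these 24 genes and 5 of these 32. Mnt, a MAX partner that itself binds E-boxes and was on no list, had a peak of score 25 inside the gene with H3K27ac. It was named after its value was seen.

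Of 22 genes of insulin processing and the granule, 2 had a distal CLOCK-only peak. The peak nearest to Iapp, which encodes amylin, lay 20258 bp from its end and inside the neighbouring transporter gene Slco1a5 (chr6:142278065-142278269), with a score of 19 and an H3K27ac interval of 5970 bp. The centre of this peak was 707 bp from an annotated start of Slco1a5. The peak inside Chga, the granule protein chromogranin A, scored 16 in a weak H3K27ac interval of 631 bp with 16.4 tags. Of 34 calcium and potassium channel genes, 1 had a peak, Kcnj11, the pore subunit of the KATP channel. This peak, chr7:46099015-46099219, scored 14 with H3K27ac and H3K4me2, and its interval was 6020 bp wide with 637.4 tags.

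Of 56 exocytosis genes, 2 had one. Rab37, a granule-associated Rab GTPase, had a peak of score 23 at chr11:115084735-115084939 with H3K27ac and H2A.Z. Syt7, a calcium sensor of exocytosis, had one of score 14, 28736 bp from its end and without a mark. Pde4b, which breaks down cyclic AMP, had the single peak among 32 incretin, GPCR and cyclic AMP genes, with a score of 13, 49046 bp from its end and unmarked. Of 45 diabetes-locus genes, 2 had one, Tspan8 with a score of 17 and H3K4me2, and Kcnj11, which 2 lists share. The nearest end does not show which gene a peak acts on.

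The distal CLOCK-only peaks were spread unevenly over chromosomes. Chromosome 4 held 79 of the 554 (14.3%) and chromosome 5 held 71 (12.8%), chromosome 14 held 45, chromosome 8 held 42, chromosome 9 held 6 and X held 2. On chromosomes 4, 5, 8 and 14, which were singled out after their counts were seen, 127 of 237 peaks (53.6%) were unmarked and 35.0% had H3K27ac. On the other chromosomes 116 of 317 (36.6%) were unmarked and 50.8% had H3K27ac. Those 4 chromosomes held 42.8% of the distal CLOCK-only peaks, 35.4% of all CLOCK peaks and 20.5% of protein-coding genes. Of the other lists they held 39.3% for BMAL1, 34.6% for H2A.Z, 29% for PDX1, 23.9% for H3K4me2 and 23.2% for H3K27ac. Among the other CLOCK classes they held 37.8% of the distal peaks on PDX1 without BMAL1, 26.2% of the distal peaks on BMAL1 and 29.8% of the gene-end peaks without either factor. The BMAL1, CLOCK and H2A.Z lists were called against the same pooled input and the other lists against another. The part of the input in this spread was not tested. The H3K27ac differences from the 3 other CLOCK classes kept their calls without chromosomes 4 and 5 and within chromosomes.

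**Figure D5:**
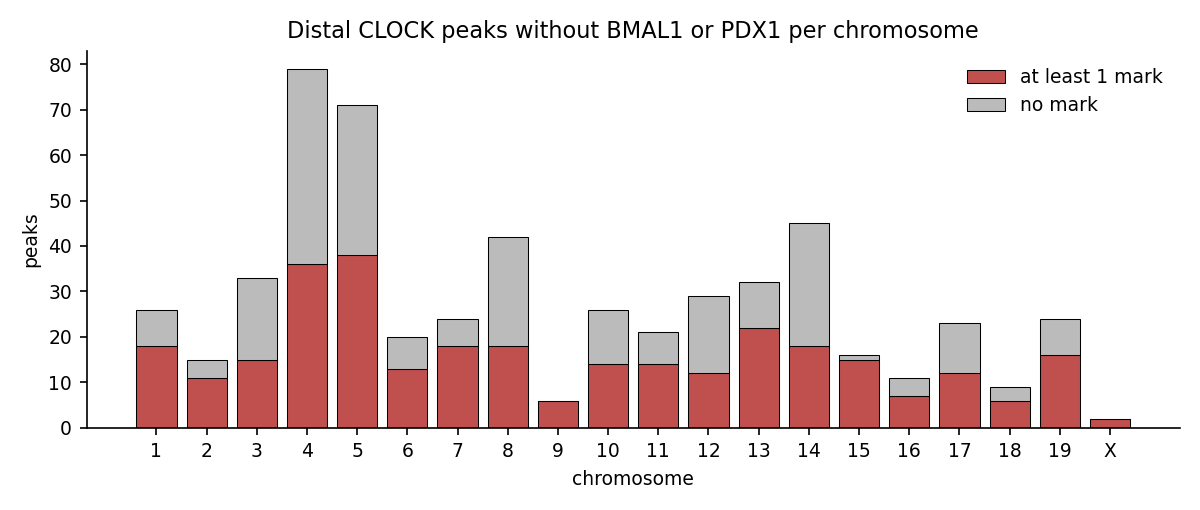
Number of distal CLOCK-only peaks (vertical axis) per chromosome (horizontal axis), split into peaks with at least 1 mark (red) and with none (grey). Chromosomes 4 and 5 hold 79 and 71 peaks, of which 43 and 33 have no mark.

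Total tags ran from 12892080 in the BMAL1 library to 26678241 in the H3K4me2 library, with 17898856 in the CLOCK library. Of the CLOCK tags 0.16% lay in CLOCK peaks. The list of 1378 CLOCK peaks remained from 3321 putative peaks after 1716 were removed for the input and 227 for local signal, per the file headers.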

How the data were processed

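The authors deposited 1 peak list per target. The submitters' processing notes name Bowtie 1.1.1, HOMER (version not given in the sources used here) and the build mm10. Peaks were called by HOMER findPeaks in each library, per the file headers. A factor peak needed a tag count of 13, an FDR of 0.001, a fold of 4 over both the input and the local 10 kb, and p-values of at most 1e-04 (Poisson). The deposited columns used were the peak score, a tag count, the normalized tag signal per 10000000 tags, the fold ratio to input and to local signal, the focus ratio (a fraction of tags on the expected side of the centre) and the p-value. CLOCK, BMAL1 and H2A.Z were called against one pooled input and the other targets against another, per the file headers, while the label of H2A.Z names the other input. DSG fixation can keep indirectly bound DNA, and fragments were sonicated, so a peak's place is approximate.

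Overlap was 1 shared base. Gene ends and spans came from RefSeq (GRCm38.p6), and starts from RefSeq windows on all chromosomes but 18, whose 9 peaks were not used there. Shares have Wilson 95% intervals. Classes were compared by two-sided Fisher's exact tests with Woolf intervals and Benjamini-Hochberg adjustment over 18 tests (Python 3.11.15, SciPy 1.17.1, statsmodels 0.14.6, pandas 2.3.3, NumPy 2.4.6), with the overlap search and the tests tested on simulated data. The planned genome-wide search for sequence motifs was replaced by a search of start windows, since no genome was used here. Alternatives changed the rule, the CLOCK threshold, the overlap, the mark lists and the gene assignment. The peaks named were the highest scores, the widest H3K27ac intervals and list genes; the members and lists were chosen with earlier results of these data known. With 1 library per target, p-values reflect peaks, not cultures.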

Additional observations from a re-analysis of the deposited data

How the results depend on the processing

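Over 16 alternative settings and 299 recomputed values, 225 kept their direction and call or stayed within their error, 26 lost a call, 6 gained one, 26 moved and 16 changed direction. Those 16 all belong to the contrasts inside against outside genes, which passed no test in any setting. For H3K27ac the odds ratio was 0.902 beyond 5 kb from gene ends, 0.955 at scores of 15 or more, 0.935 both away from annotated starts and without chromosomes 4 and 5, 0.946 within score classes and 0.993 within chromosomes. For H3K4me2 it was 1.03 without BMAL1 or PDX1 within 500 bp, 1.1 with the ends of all genes, 1.09 at 8 times the input and 1.02 with the upper 50% of the mark lists. For H2A.Z it was 0.948 without BMAL1 or PDX1 within 500 bp, 0.631 beyond 5 kb, 0.99 at 8 times the input, 0.8 with a mark within 500 bp, 0.948 away from annotated starts and 0.941 within chromosomes. The cause was not tested. No paired analysis was possible because each target has 1 library. The H3K27ac odds ratio against the PDX1 class ranged from 0.171 to 0.417 and that against the gene-end class from 0.241 to 0.565, with every adjusted p under 0.05. Against the gene-end class the odds ratio ranged from 0.103 to 0.45 for H3K4me2 and from 0.218 to 0.486 for H2A.Z, and these calls held too.

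With CLOCK scores of 15 or more there were 212 peaks at 151 genes, with H3K27ac at 63.2%, H3K4me2 at 52.8%, H2A.Z at 17.0% and no mark at 23.1%. The lost calls were H3K4me2 against the PDX1 class (0.813) and the BMAL1 class (0.681), H2A.Z against the BMAL1 class (0.691), and the 50 kb contrasts (1.31, 1.41 and 1.16 for H3K27ac, H3K4me2 and H2A.Z). At 8 times the input there were 286 peaks at 182 genes, with 35.7% H3K27ac, 32.5% H3K4me2, 14.3% H2A.Z and 51.7% unmarked, and the 50 kb contrasts were lost (1.07, 1.41 and 2.14). The H3K27ac and H3K4me2 shares were thus higher at the stricter score and lower at the stricter ratio. The H2A.Z share was higher at the stricter score. At the stricter ratio its 14.3% stayed within the interval of the main share (13.2%, 10.6 to 16.2). The cause was not tested.

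With the centre inside the mark, H3K4me2 fell to 33.6%, H2A.Z against the PDX1 class gained a call (2.04) and H2A.Z by 50 kb lost one (1.81). With a mark within 500 bp, the shares were 49.8%, 46.8%, 19% and 37.0% unmarked, and H2A.Z by score gained a call (1.69). With the upper 50% of each mark list they were 28.9%, 30.0%, 9.39% and 55.2%; H2A.Z against the PDX1 class gained a call (2.09), while H2A.Z against the BMAL1 class (0.592) and by 50 kb (1.87) and H3K4me2 by 50 kb (1.48) lost theirs. Without BMAL1 or PDX1 within 500 bp, H2A.Z by score gained a call (1.89) and by 50 kb lost one (1.77). Beyond 5 kb from gene ends, H3K4me2 (1.56) and H2A.Z (1.57) by 50 kb lost theirs, and with the ends of all genes H2A.Z by 50 kb did (1.85).

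Within CLOCK score classes, H3K27ac (0.58) and H3K4me2 (0.778) against the BMAL1 class and H3K27ac by 50 kb (1.54) lost their calls. The inside-gene share was 63.7% with spans of all genes, and 171 genes had a peak within 10 kb. The following were chosen after seeing the data. Away from annotated starts, the shares were 39.7%, 33.5%, 10.5% and 49.2% unmarked, and H2A.Z against the BMAL1 class (0.53) and the 50 kb contrasts (1.46, 1.41 and 1.5) lost their calls. Without chromosomes 4 and 5, H2A.Z by score gained a call (1.91), and H3K27ac (1.59) and H2A.Z (1.79) by 50 kb lost theirs. Within chromosomes, H2A.Z against the PDX1 class gained one (1.84). Depth was not varied, and 41.7% of the peaks stood at the lowest score the caller allowed.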
